A study of Rattus norvegicus with 6 samples.

Results

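The miR-30 family was followed across 6 small RNA libraries of PC12 cells, an established rat adrenal pheochromocytoma line used as a model of neuron-like cells. Its members are all rows of the deposited table named miR-30a to miR-30e, whatever the arm or gene copy, which gave 11 of 1289 rows: 5 guide (5p) arms and 6 3p arms. All 11 had enough reads to be tested. The libraries fall into 3 labelled EC and 3 labelled EN. The labels spell out neither abbreviation and give no dose or time, and the title of the series concerns nerve repair with Netrin-1 and exosomes of endothelial cells. All libraries came from this 1 line. No label says that replicates were separate cultures, so p-values here measure the spread between libraries, which may be technical.

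A miRNA gene is transcribed as a hairpin from which both arms can be cut. As a rule the arm loaded into Argonaute, called the guide, represses mRNAs that pair with its seed, and the other arm is mostly degraded. The miR-30 guides share 1 seed and are known for repressing Snai1, an inducer of epithelial-mesenchymal transition, Ccn2 (connective tissue growth factor), the autophagy gene Becn1 and, in brain, the neurotrophin gene Bdnf. The family is carried by 6 genes in 3 neighbouring pairs: Mir30b with Mir30d, Mir30c1 with Mir30e inside the protein-coding gene Nfyc, and Mir30a with Mir30c2. In the RefSeq gene table (GRCr8) none of the 6 overlaps another miRNA gene. That assembly is not the Rnor 6.0 of the submitters' processing notes, so no coordinates are given.

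The mature sequences that separate the members are shown with the seed (bases 2 to 8) in capitals, from RefSeq (GRCr8), which held 6 of the 11 members. The guide of miR-384 is added because it carries the same seed. Positions below are counted from 1 at the 5′ end.
rno-miR-30a-5p: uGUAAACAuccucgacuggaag
rno-miR-30e-5p: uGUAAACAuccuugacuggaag
rno-miR-30c-5p: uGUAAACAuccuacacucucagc
rno-miR-384-5p: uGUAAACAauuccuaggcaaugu
rno-miR-30a-3p: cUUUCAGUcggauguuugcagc
rno-miR-30c-1-3p: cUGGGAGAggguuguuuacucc
rno-miR-30c-2-3p: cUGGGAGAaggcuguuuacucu

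The seed GUAAACA occurred in 4 of the 693 mature miRNAs of that RefSeq table, the 4 guides printed above. The guides of miR-30a and miR-30e are identical at 21 of 22 positions and differ by C13U, so a read with 1 error there can pass from one row to the other. The miR-30c guide differs from that of miR-30a at 5 positions (C13A, G14C, G18C, G19U and A20C), all outside the seed. No source used here tells how such near matches were treated. The 3p arms of miR-30c-1 and miR-30c-2 share the seed UGGGAGA and differ by G9A, U12C and C22U, while that of miR-30a has the seed UUUCAGU. One guide, miR-30c-5p, is cut from both Mir30c1 and Mir30c2. The paired hairpins show this, with the annotated mature arms in capitals.
Mir30c1: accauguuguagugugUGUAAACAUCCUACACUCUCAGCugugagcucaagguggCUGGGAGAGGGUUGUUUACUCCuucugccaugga
Mir30c2: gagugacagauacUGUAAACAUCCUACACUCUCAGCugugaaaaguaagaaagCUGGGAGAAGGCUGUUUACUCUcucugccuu
Reads of this guide therefore cannot be split between the Mir30c1 and Mir30e pair and the Mir30a and Mir30c2 pair. The 3p arms can, as far as near matches were told apart. The Mir30e hairpin holds, on its 3p side, a stretch nearly identical to miR-30a-3p, so reads of these arms may also pass between rows.

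The EC libraries held 6153582 to 6554639 miRNA counts and the EN libraries 4521694 to 5371351. Single libraries departed from their group in both directions. Among the 325 rows averaging at least 100 counts, EC replicate 2 lay more than 0.5 log2 units below both other EC libraries in 27 and above both in 7. These counts were 15 and 16 for EC replicate 1, 7 and 9 for EC replicate 3, and 24 and 10 for EN replicate 1 within its group. Of the rows low in EC replicate 2, 4 were miR-30 guides, and the rows low in the other libraries held 0 miR-30 arms. Results on the guides are therefore given with and without EC replicate 2, and without another EC library where that moves them far. Of the markers of the line, miR-9a-5p stood at 1454 ± 220.2 CPM (counts scaled to a common total of miRNA counts) in EC and 1088 ± 154 in EN (SD, n = 3), and miR-7a-5p at 1063 ± 77.4 and 1333 ± 143 CPM. The islet and neuroendocrine miR-375-3p was low at 2.68 ± 0.64 and 2.73 ± 0.44 CPM, and the neuronal miR-124-3p and miR-137-3p lay under 1 CPM on average in both groups. Summed, the 9 neuroendocrine markers ranged from 2229 to 2779 CPM in EC and from 2253 to 2783 CPM in EN. Nearly all of this sum was miR-9a-5p and miR-7a-5p, whose means differed in opposite directions, so it says little of the rarer markers. Of the 9, 6 could be tested and 0 passed edgeR's threshold. Of the other cell types, both endothelial markers summed to 1083 to 1151 and 1057 to 1232 CPM, nearly all of it miR-126a-3p. The rarer endothelial miR-126a-5p fell from 60.7 ± 5.15 to 32.9 ± 4.80 CPM (SD, n = 3; log2 fold change -0.86, edgeR adjusted p = 0.0471). Red blood cell markers summed to 5.75 to 9.76 and 19.5 to 31.6 CPM, leukocyte markers to 86.6 to 123 and 126 to 159 CPM, muscle markers to 1.79 to 30.5 and 1.76 to 2.42 CPM, and the liver marker to 5.95 to 9.91 and 7.96 to 14.5 CPM. The muscle sum was high in EC replicate 1 only, with EC replicates 2 and 3 at 1.79 and 4.12 CPM. Most of it was miR-206-3p, at 11.2 ± 15.5 CPM in EC and 1.44 ± 0.30 in EN (SD, n = 3). Nearly all of the leukocyte sum was miR-150-5p, at 99.9 ± 17.9 CPM in EC and 140 ± 16.8 in EN (SD, n = 3). The leukocyte miR-142-3p averaged 1.61 and 1.10 CPM, miR-142-5p 0.829 and 0.221 CPM, and miR-223-3p 0.265 and 0.491 CPM. The red blood cell miR-451-5p rose from 8.16 ± 2.63 to 23.2 ± 6.55 CPM (SD, n = 3; log2 fold change 1.52, edgeR adjusted p = 0.0471). Both miR-144-3p and miR-1-3p averaged 0.124 CPM or less in each group, and miR-144-5p has no row. The part of these differences in the miR-30 results was not tested.

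Together the 5 miR-30 guides were a small part of the miRNAs of these cells. They took 0.646, 0.387 and 0.527 percent of miRNA counts in EC replicates 1, 2 and 3 and 0.350, 0.381 and 0.363 percent in the EN replicates. The 95 percent Wilson intervals reach at most 0.00619 percentage points to either side, for counting error only. The EC mean was 0.520 ± 0.130 percent and the EN mean 0.365 ± 0.016 percent (SD, n = 3). EC replicates 1 and 3 were above all EN libraries, while EC replicate 2 lay only just above the highest EN library. That order does not hold after scaling by TMM factors, explained below. The summed guides then stood at 3802 CPM in EC replicate 2 and 3943 CPM in EN replicate 2, so the groups overlapped. The gap between the groups was -0.16 percentage points with all libraries, -0.22 without EC replicate 2 and -0.092 without EC replicate 1.

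**Figure D1:**
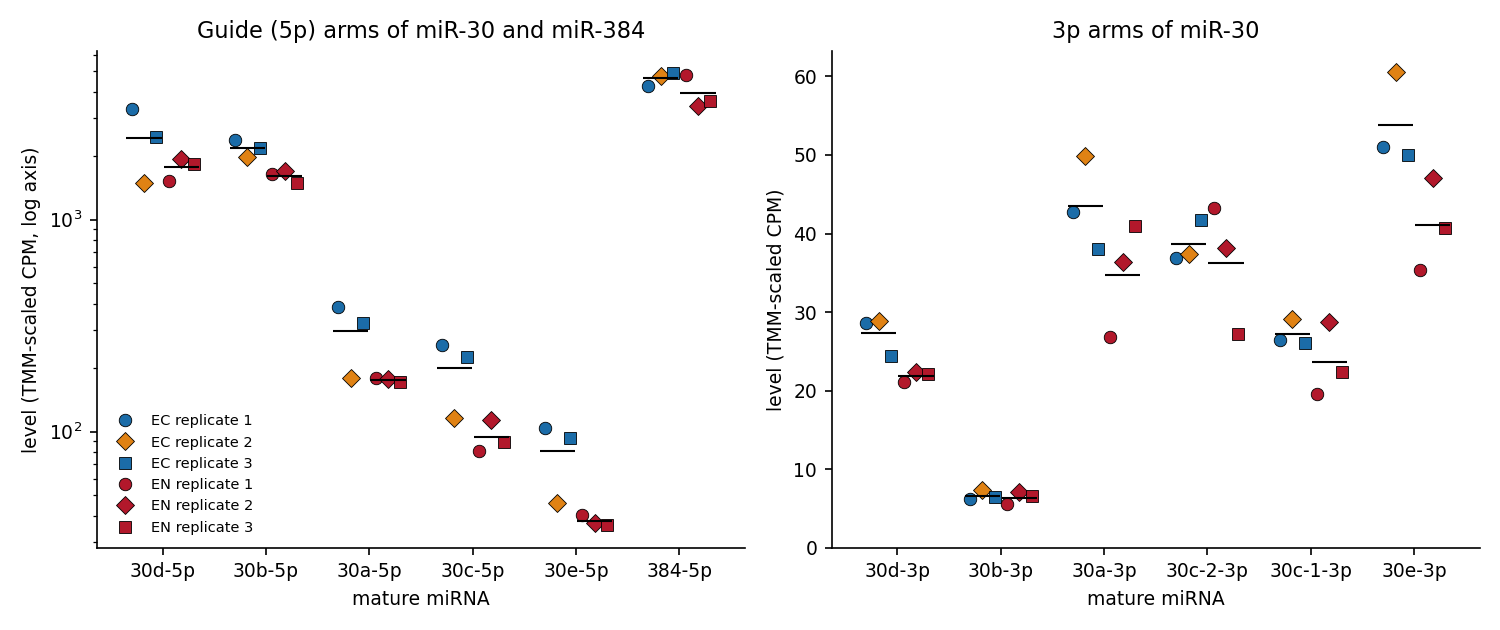
Level of each miR-30 arm in every library, in TMM-scaled CPM, with guide arms and miR-384-5p on a log axis (left) and 3p arms on a linear axis from 0 (right); points are libraries and bars are group means of 3. For the guides of miR-30a, miR-30c, miR-30d and miR-30e, EC replicate 2 (orange) sits near the EN libraries, and in the 3p panel it is in no arm the lowest EC library.

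Levels from here on are CPM after scaling by TMM factors, which correct for differences in library makeup, and the mature sequences in hand are all 22 or 23 bases long, so levels need no correction for length. Read counts of different miRNAs can also differ in how well each is captured. Among the guides, those of the Mir30b and Mir30d pair dominated. MiR-30d-5p stood at 2422 ± 913 CPM in EC and 1760 ± 207 in EN (SD, n = 3), rank 58 of 628 tested rows by mean level. MiR-30b-5p stood at 2168 ± 195.02 and 1611 ± 106.1 CPM, rank 61. These neighbours in the order did not differ beyond their spread in either group. The guides of the other genes were lower by a wide margin, at 296 ± 106 and 176 ± 3.93 CPM for miR-30a-5p, 198.6 ± 73.7 and 94.5 ± 16.9 for miR-30c-5p, and 80.8 ± 30.6 and 37.8 ± 2.21 for miR-30e-5p. Across the EC libraries the values of miR-30a-5p and miR-30c-5p overlapped, and across the EN libraries they did not. Within every single library miR-30a-5p was above miR-30c-5p.

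MiR-384-5p, the relative by seed, was more abundant than any single miR-30 guide in all 6 libraries. It measured 4286, 4755 and 4891 CPM in EC and 4778, 3443 and 3622 CPM in EN, rank 40. Of the reads of these 6 guides its part was 47.9 ± 7.77 percent in the EC libraries and 51.5 ± 5.79 percent in the EN libraries (SD, n = 3), with a range over libraries of 40.03 to 57.9 percent. MiR-30d-5p took 24.2 ± 6.77 and 23.3 ± 4.15 percent, miR-30b-5p 22.2 ± 0.84 and 21.2 ± 1.57 percent, and miR-30e-5p 0.806 ± 0.234 and 0.496 ± 0.0067 percent. The log2 fold change of miR-384-5p was -0.23 (SE 0.14, edgeR adjusted p = 0.401), and its groups overlapped.

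**Figure D2:**
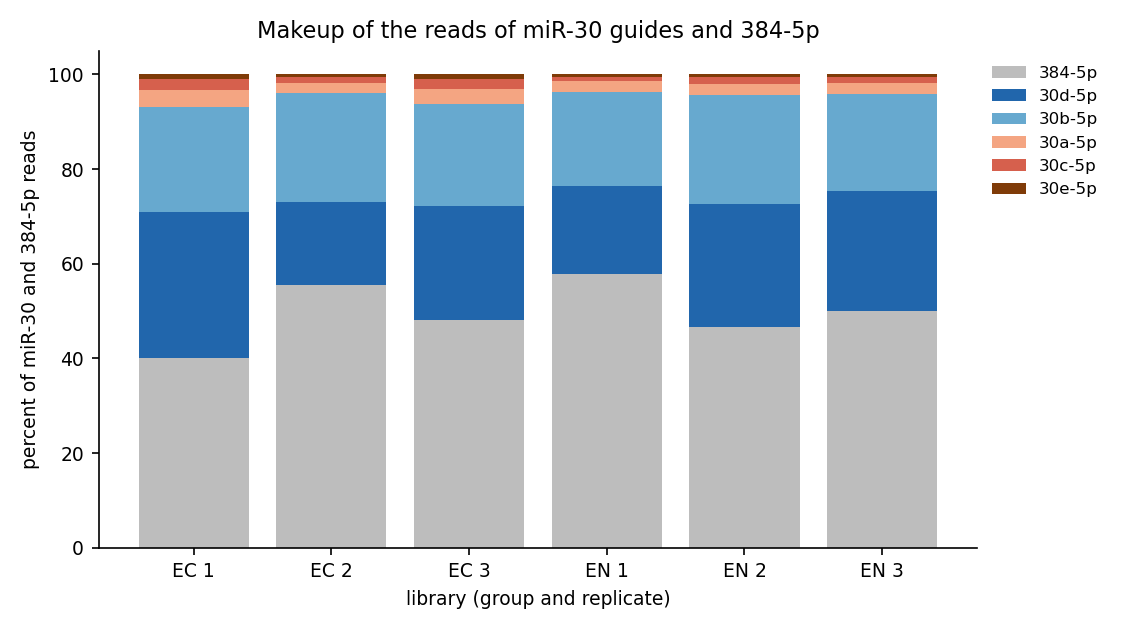
Makeup of the reads of the 5 miR-30 guides and miR-384-5p in each library, as percent of their summed counts (stacked bars from 0 to 100). MiR-384-5p takes 40.03 to 57.9 percent, and the guides of miR-30a, miR-30c and miR-30e are thin bands in every library.

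Each arm was then compared between EN and EC. All 11 miR-30 log2 fold changes were negative, from -1.09 to -0.06 with a median of -0.39, where 49.2 percent of the 628 rows tested were negative and their median was 0.02. None of the 11 passed the threshold of 0.05 after adjustment over all rows by edgeR's quasi-likelihood F-test, where 3.98 percent of rows were called, 1.91 percent as lower in EN. At an unadjusted p under 0.05 there were 5 of 11, against 21.7 percent of all rows. DESeq2 called 4 of the 11 lower, against 5.57 percent of all rows, and limma-voom 0. Without the filter on low counts edgeR called 1 (miR-30e-5p), against 1.78 percent of rows. The 3 EN libraries lay below all 3 EC libraries for 5 of the 11, against 14.6 percent of all rows.

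Of the Mir30b and Mir30d pair, rno-miR-30b-5p was the guide that varied least among the EC libraries. It measured 2361, 1971 and 2172 CPM in the EC libraries and 1647, 1694 and 1491 in the EN libraries, so every EN library was below every EC library. Its log2 fold change was -0.43 (SE 0.11, edgeR adjusted p = 0.0776). The guide rno-miR-30d-5p, from the gene next to it, measured 3316, 1492 and 2459 CPM in the EC libraries and 1527, 1922 and 1832 in the EN libraries. EC replicate 2 was the lowest of the 6 libraries, the groups overlapped, and the log2 fold change was -0.46 (SE 0.29, adjusted p = 0.412). Within this pair miR-30d-5p was thus above miR-30b-5p in EC replicate 1 and below it in EC replicate 2.

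From the pair in Nfyc, rno-miR-30e-5p measured 104, 46.0 and 92.9 CPM in EC and 40.3, 37.0 and 36.1 in EN. The groups did not overlap, but EC replicate 2 was nearer to the EN libraries than to the other EC libraries. The log2 fold change was -1.09 (SE 0.30, edgeR adjusted p = 0.0852). The guide rno-miR-30c-5p, made by both copies of the gene, measured 255, 115 and 225 CPM in EC and 81.05, 113 and 88.9 in EN. Here too the EN libraries were all lower, EC replicate 2 only just above EN replicate 2, and the log2 fold change was -1.07 (SE 0.30, adjusted p = 0.0890).

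The guide rno-miR-30a-5p, whose gene neighbours Mir30c2, measured 385, 178 and 326 CPM in EC and 179, 177 and 171 in EN. EC replicate 2 lay among the EN libraries, and the SD over the EN libraries was 3.93 CPM. The log2 fold change was -0.76 (SE 0.27, edgeR adjusted p = 0.147). Summing guides that are hard to tell apart changed no call. Those of miR-30a, miR-30d and miR-30e together had a log2 fold change of -0.51 (SE 0.28, adjusted p = 0.352), and those of miR-30b and miR-30c together -0.48 (SE 0.12, adjusted p = 0.0689).

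EC replicate 2 was the lowest EC library for all 5 guides and for none of the 6 3p arms, where 33.1 percent of all tested rows had it lowest. Its level was 50.1 percent of the mean of EC replicates 1 and 3 for miR-30a-5p, 48.0 for miR-30c-5p, 51.7 for miR-30d-5p and 46.8 for miR-30e-5p. For miR-30b-5p it was 87.0 percent. For the 3p arms it ranged from 95.1 percent (miR-30c-2-3p) to 123 percent (miR-30a-3p). The low value was thus shared by the rows of 4 guides from all 3 pairs of genes, not by the guide of miR-30b or by any 3p arm. The guides of miR-30a, miR-30d and miR-30e are hard to tell apart, so their rows may not be independent. Whether reads passed between them was not tested. What sets EC replicate 2 apart was not tested either.

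Since EC replicate 2 is the EC library lowest in the guides, leaving it out raises their EC mean and narrows their spread by construction, so the calls gained that way are a description and not separate evidence. Without it, 3 of the 11 members passed edgeR's threshold as lower in EN, where 4.09 percent of rows were called lower. They were miR-30e-5p at -1.35 (SE 0.17, adjusted p = 0.0102), miR-30c-5p at -1.33 (SE 0.19, adjusted p = 0.0146) and miR-30a-5p at -0.99 (SE 0.15, adjusted p = 0.0164). MiR-30d-5p at -0.69 (SE 0.17, adjusted p = 0.0592) and miR-30b-5p at -0.47 (SE 0.13, adjusted p = 0.0813) did not pass. Leaving out any other single library gave 0 members past the threshold. Without EC replicate 1, the highest library for all 5 guides, miR-30d-5p was at -0.16 (SE 0.22, adjusted p = 0.763), miR-30a-5p at -0.51 (adjusted p = 0.380) and miR-30e-5p at -0.87 (adjusted p = 0.208). The scale of the values matters as well. With the larger library totals implied by the RPM columns in place of miRNA counts, 6 of the 11 fell, against 14.2 percent of rows. MiRNA counts were 30.9 to 32.6 percent of that total in the EC libraries and 25.0 to 26.9 percent in the EN libraries, without overlap. They were all guides but miR-30d-5p, plus miR-30d-3p and miR-30e-3p. With that divisor the median over all rows went from 0.02 to -0.30 and that of the members from -0.39 to -0.73, so the distance between the medians stayed about the same.

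**Figure D3:**
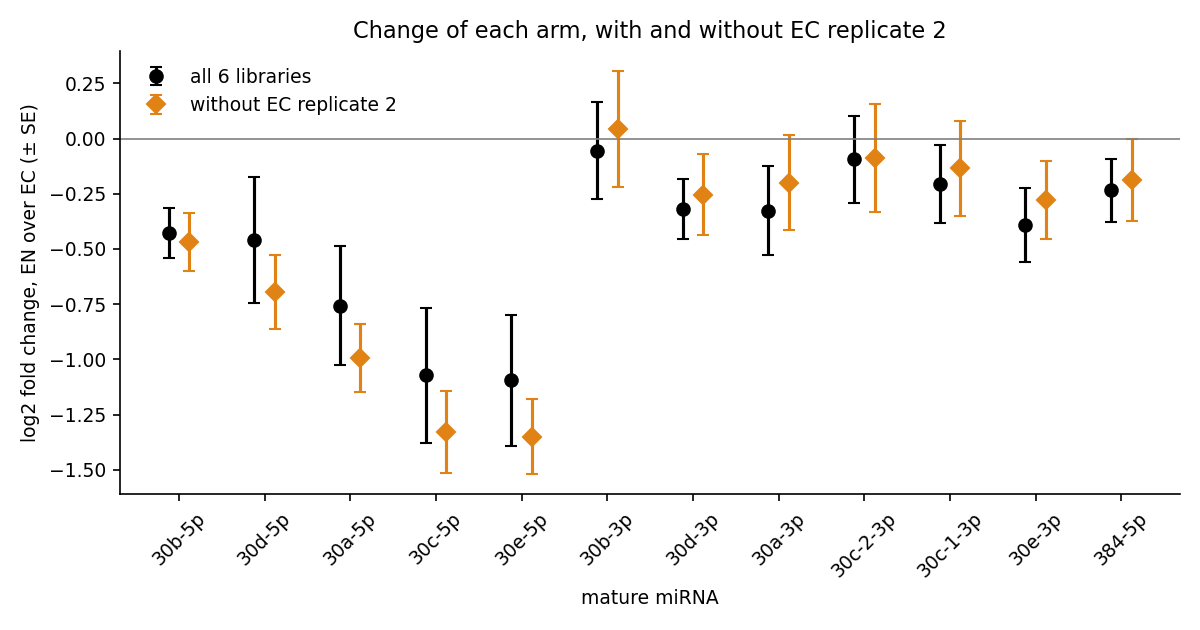
Log2 fold change of EN over EC with its SE for each miR-30 arm and miR-384-5p, from all 6 libraries (black) and without EC replicate 2 (orange). The guides of miR-30a, miR-30c, miR-30d and miR-30e move further from 0 with smaller errors when that library is left out, to between -1.35 and -0.69. The 3p arms move the other way, from between -0.39 and -0.06 with all libraries to between -0.28 and 0.04 without it.

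The 3p arms were rare and closer between the groups. MiR-30e-3p, the most abundant, measured 51.0, 60.5 and 49.9 CPM in EC and 35.3, 47.1 and 40.7 in EN, with no overlap and a log2 fold change of -0.39 (SE 0.17, edgeR adjusted p = 0.236). MiR-30d-3p measured 28.6, 28.9 and 24.4 CPM in EC and 21.1, 22.4 and 22.1 in EN, also without overlap, at -0.32 (SE 0.14, adjusted p = 0.228). These came from different pairs of genes. In the other 4, miR-30a-3p, miR-30b-3p, miR-30c-1-3p and miR-30c-2-3p, the groups overlapped, with log2 fold changes from -0.33 to -0.06. MiR-30b-3p was the lowest member of the family at 6.65 ± 0.62 and 6.40 ± 0.78 CPM (SD, n = 3), although its partner arm was among the highest.

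Every 3p arm is named for 1 gene, so the 3p arms give the 3 pairs of genes separately as far as near matches were told apart. Reads mistaken between miR-30a-3p and miR-30e-3p would blur the pairs they belong to. The 3p arms of Mir30c1 and Mir30e summed to 77.4, 89.6 and 76.05 CPM in EC and to 55.0, 75.9 and 63.1 in EN. Those of Mir30a and Mir30c2 summed to 79.7, 87.2 and 79.7 CPM in EC and to 70.1, 74.5 and 68.1 in EN. Those of Mir30b and Mir30d summed to 34.7, 36.2 and 30.8 CPM in EC and to 26.6, 29.5 and 28.7 in EN. In all 3 sums each EN library was below each EC library, and EC was 1.25, 1.16 and 1.20 times EN on average. For Mir30c1 and Mir30e the margin was narrow, with EN replicate 2 at 75.9 CPM and EC replicate 3 at 76.05 CPM. Of the 6 arms summed, only 2 separated the groups singly, where 14.6 percent of all rows tested had every EN library below every EC library. The pair with the rarest 3p arms was the one with the most abundant guides.

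Direct ratios between single arms of different genes were put to two-sided exact permutation tests over the 6 libraries, for which 3 against 3 allow no p under 0.1, adjusted over 7 ratios. The log2 ratio of miR-30e-5p to miR-30d-5p was -4.998, -5.01 and -4.72 in EC and -5.24, -5.69 and -5.65 in EN. The groups did not overlap, the difference was -0.61, and the exact p was 0.1 (adjusted 0.7). Here EC replicate 2 lay close to EC replicate 1, and without it the difference was -0.67. For miR-30c-5p to miR-30b-5p the values were -3.21, -4.09 and -3.27 in EC and -4.34, -3.90 and -4.06 in EN, a difference of -0.58 with an exact p of 0.3, and -0.86 without EC replicate 2. The 5 ratios between 3p arms differed by -0.17 to 0.22 between the groups, all with overlap and exact p from 0.2 to 1. These ratios do not depend on the library total, and by this exact test none of them could have passed, whatever its size.

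The arms were used very differently by the 5 miRNAs. MiR-30b gave 227 to 382 guide reads for each 3p read, miR-30d 51.6 to 116, miR-30a 3.58 to 8.996, miR-30c 1.29 to 4.03 against both of its 3p arms summed, and miR-30e 0.760 to 2.03. In miR-30e the 3p arm outnumbered the annotated guide in EC replicate 2 and in EN replicates 2 and 3. MiR-384 gave 1.85 to 2.23.

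Arm use was compared on log2((5p + 1)/(3p + 1)) by limma over 108 miRNAs, of which 5.56 percent were called. None of the 5 miR-30 pairs passed, and 1 had an unadjusted p under 0.05, against 23.1 percent of all pairs. The log2 ratio of miR-30c was 2.01, 0.79 and 1.73 in EC and 0.36, 0.76 and 0.84 in EN, so that EN differed by -0.86 (SE 0.35, adjusted p = 0.204). EC replicates 1 and 3 were above all other libraries. That of miR-30e was 1.02, -0.39 and 0.89 in EC and 0.19, -0.34 and -0.17 in EN, so that EN differed by -0.62 (SE 0.41, adjusted p = 0.381), with EC replicate 2 the lowest. The differences for miR-30a, miR-30b and miR-30d were -0.35, -0.38 and -0.08.

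Which EC library was left out moved these differences in opposite directions. Without EC replicate 2, the lowest of them, limma gave -1.21 (SE 0.24, adjusted p = 0.0280) for miR-30c and -1.07 (SE 0.23, adjusted p = 0.0303) for miR-30e, past the threshold, where 7.41 percent of the pairs were called lower. The same limit of construction holds for these calls. The other 3 did not pass, with differences of -0.78 for miR-30a, -0.52 for miR-30b and -0.44 for miR-30d. Without EC replicate 1 none passed, with limma at -0.61 (adjusted p = 0.431) for miR-30c, -0.36 (adjusted p = 0.652) for miR-30e, -0.11 for miR-30a and 0.15 for miR-30d. Without EC replicate 3 miR-30a was at -0.15 and miR-30d at 0.04. The ratio of miR-384, 1.02, 0.98 and 1.01 in EC and 0.89, 1.16 and 1.10 in EN, varied little, and EC replicate 2 lay close to the other EC libraries.

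**Figure D4:**
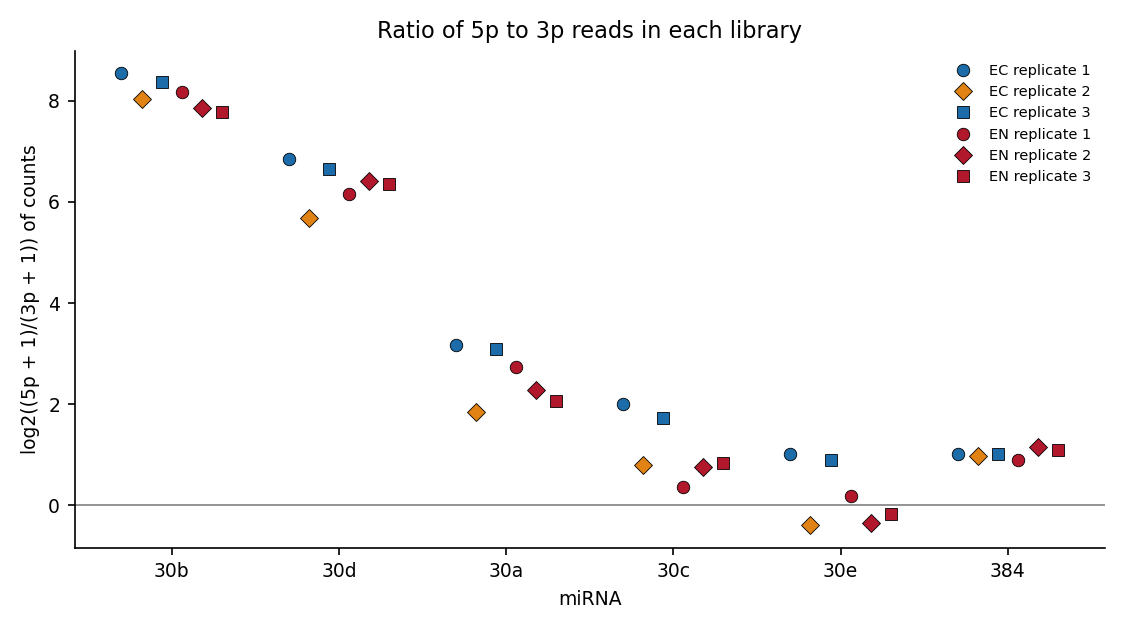
Log2 ratio of 5p to 3p reads (pseudocount 1) of the 5 miR-30 miRNAs and miR-384 in each library, with the line at 0 marking equal arms. EC replicate 2 (orange) is the lowest EC library for all 5 miR-30 miRNAs, and miR-384 stays between 0.89 and 1.16.

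The tested rows outside the family most like its guides were sought over the 6 libraries, by Pearson's r of log2 CPM with the mean of the 5 guides, among 315 rows averaging at least 100 counts. With 6 points that share their libraries r is a description only. The closest was miR-532-3p (r = 0.992), at 250.04, 64.4 and 199.9 CPM in EC and 62.7, 73.6 and 64.2 in EN. A predicted miRNA that the authors numbered 61, 3p arm, followed with r = 0.977, then miR-325-3p, whose gene is the nearest miRNA gene to Mir384, with 0.967, miR-455-3p with 0.958 and miR-24-3p with 0.955. All 5 are 3p arms. In miR-24-3p, one of the most abundant rows, EC replicates 1 and 3 stood at 66109 and 52515 CPM, while EC replicate 2 at 34077 was below the 3 EN libraries at 37164, 37035 and 37738. The low value of EC replicate 2 is therefore not limited to the miR-30 guides, nor to 5p arms. None of these 5 rows passed with all libraries. Without EC replicate 2 all 5 passed edgeR's threshold as lower in EN, against 4.09 percent of rows, with log2 fold changes from -1.73 to -0.64. Their choice by likeness to the guides over the same libraries fixes much of this, so it adds no evidence.

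**Figure D5:**
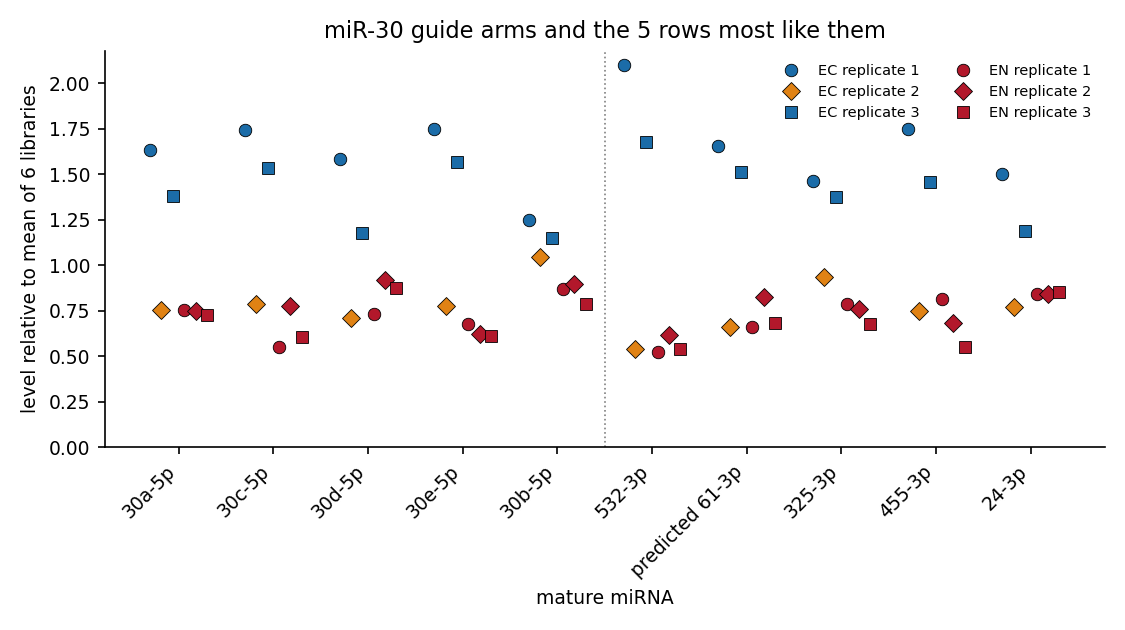
Level of the miR-30 guides (left of the dotted line) and the 5 rows most like them (right) in each library, as TMM-scaled CPM divided by the row's mean over 6 libraries. EC replicates 1 and 3 (blue) are high in each of the 10 rows, and EC replicate 2 (orange) sits at or near the EN libraries (red) in most of them, less so in miR-30b-5p and miR-325-3p.

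Other miRNAs known to act on the same processes, extracellular matrix, fibrosis and epithelial state, formed a list of 23, of which 19 could be tested. None passed edgeR's test in either direction. At an unadjusted p under 0.05 there were 7, against 21.7 percent of all rows. DESeq2 called 3 lower, against 5.57 percent of all rows, and 0 higher, and limma-voom called 0. Their log2 fold changes were negative in 11 and positive in 8, from -1.40 to 0.64 with a median of -0.12. The 6 named here are the most abundant, so some larger changes in rarer rows are not named. MiR-29b-3p, known for repressing collagen mRNAs, measured 4715, 4717 and 7548 CPM in EC and 3318, 2644 and 2474 in EN, at -1.01 (SE 0.22, adjusted p = 0.0515). Its adjusted p passed or missed the threshold by setting. By edgeR it was 0.0450 under RLE factors, 0.0465 with total miRNA counts, 0.0109 with totals implied by RPM and 0.0205 without a filter. It was 0.0423 at a mean of 10 CPM, 0.0496 with known rows only, 0.0470 without the 5 most abundant miRNAs and 0.0498 without EC replicate 2. DESeq2 gave 0.000189. It missed at 0.0566 by limma-voom, 0.156 with the replicate block, 0.0517 with near-identical guides summed and 0.0584 to 0.190 without any 1 of the other 5 libraries. The profibrotic miR-21-5p, at 0.09 (SE 0.10), and miR-34a-5p, a target of p53, at 0.03 (SE 0.08), were about level. MiR-26a-5p, miR-29a-3p and miR-26b-5p were at -0.28, -0.36 and -0.27, without passing. EC replicate 2 was below all EN libraries in 5 of the 19 tested, against 31.1 percent of all rows, and in none of the 6 named here.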

How the data were processed

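Small RNA libraries of 6 PC12 samples (3 EC, 3 EN) were made from Trizol RNA with a TruSeq kit, per the labels. The authors deposited whole-number read counts per mature miRNA and RPM values, which equal the counts divided by a library total that exceeds the summed miRNA counts. The submitters' processing notes name HISAT2 2.0.5 and Rnor 6.0. No source used here gives the counting program, the annotation, or rules for strand and multiple matches.

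Counts were tested with edgeR 4.0.16 in R 4.3.3 (filterByExpr, TMM, robust quasi-likelihood, Benjamini-Hochberg over 628 rows). SE is the absolute log2 fold change over the square root of F. Arm ratios, where both arms averaged at least 20 counts, were tested with limma 3.58.1. The fits were tested on simulated data. The members and lists were chosen with earlier results of these data known. Named are all members, miR-384, up to 6 rows of the list (called first, then most abundant) and the 5 most similar rows. The replicate number was not used as a block. Alternatives included DESeq2 1.42.0 and each library left out.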

Additional observations from a re-analysis of the deposited data

How the results depend on the processing

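The count of miR-30 arms past the threshold, 0 with all libraries, was 6 with library totals implied by RPM, 4 with DESeq2, 1 (miR-30e-5p) without a filter, and 0 to 3 without 1 library, where only leaving out EC replicate 2 gave any. It was 0 with limma-voom, total counts, RLE factors, at least 10 CPM, known rows only, without the 5 most abundant miRNAs, and with near-identical guides summed. Over all rows, 13 were called higher and 12 lower in EN. These counts became 13 and 88 with totals implied by RPM, 21 and 23 without a filter, 35 and 35 with DESeq2, and ranged from 2 to 23 and from 0 to 26 without 1 library. Arm use calls, 6, were 1 to 15 without 1 library. Beyond the changed divisor and the fewer libraries, the cause was not tested. The difference in the guides' share was -0.22 to -0.09 percentage points without 1 library.

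A replicate block on the library number left 0 miR-30 arms past the threshold, and over all rows 1 higher and 1 lower. Libraries with the same number had deviations correlated by 0.11, -0.03 and 0.03, so the number was not taken to pair them.

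Reversals met only values that did not pass. MiR-30b-3p became 0.020 with known rows only and ranged from -0.10 to 0.044 without 1 library, miR-30c-2-3p from -0.25 to 0.077, and the 5p to 3p difference from -0.44 to 0.15 for miR-30d and from -0.0075 to 0.13 for miR-384. The log2 ratio differences without 1 library ranged from -0.095 to 0.54 for miR-30c-2-3p to miR-30a-3p, from -0.15 to 0.12 for miR-30a-3p to miR-30d-3p and from -0.076 to 0.13 for miR-30a-3p to miR-30e-3p. With totals implied by RPM, miR-21-5p became -0.24 and miR-34a-5p -0.30. For miR-34a-5p it was -0.00093 without a filter and ranged from -0.0141 to 0.10 without 1 library. Of 181 refits of members, 163 kept the direction and the side of the threshold, 14 newly passed and 4 reversed. Depth limits miR-30b-3p most, with 30 to 46 counts per library.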
